A study of Homo sapiens with 18 samples.

Results

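The genes PLAU, PLAUR, PLAT, SERPINE2, SERPINB2, SERPINB5, TIMP1, TIMP2 and TIMP3 encode the plasminogen activators, an activator receptor, inhibitory and related serpins, and the tissue inhibitors of metalloproteinases. They were chosen by name, as the rows of the deposited count table that carry these gene names, and are 9 of its 19901 genes. All 9 were among the 15475 genes that passed the filter on low counts. mRNA was sequenced from 3 cell lines of head and neck squamous cell carcinoma (HNSCC), namely Detroit 562, FaDu and SCC-9. Each line was left untreated or was treated with hepatocyte growth factor (HGF), the ligand of the Met receptor, at 50 ng/ml for 16 h, with 3 libraries in each of the 6 groups. Detroit 562 and FaDu were grown in MEM-α, whereas SCC-9 was grown in DMEM F12 with HEPES and hydrocortisone, so line and medium cannot be told apart when SCC-9 is compared with another line. Untreated cells went through the same seeding and trypsin detachment as treated cells, and no line carried a labelled genetic change. The study's methods state that the experiment was repeated, but the labels do not tie each library to a repeat, so the p-values measure the spread between these libraries.

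Plasminogen is a circulating zymogen that the urokinase-type (uPA, PLAU) and tissue-type (tPA, PLAT) activators cleave to plasmin, a protease that degrades fibrin and matrix and activates other proteases. The urokinase receptor (uPAR, PLAUR) holds uPA at the cell surface, and serpins trap the activators by a suicide mechanism in which the protease cleaves the inhibitor and stays bound to it. TIMPs bind the active site of matrix metalloproteinases (MMPs) and of some ADAM proteases, and in squamous carcinoma both systems are known for their part in invasion through matrix.

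The 18 libraries held 35304770 to 44003970 counts each. All 8 squamous epithelial markers (KRT5, KRT14, KRT17, KRT6A, TP63, CDH1, EPCAM, DSG3) had a mean above 1 CPM (counts scaled to a library total of 1000000) in every group. Their summed level was 3046 to 4464 CPM in untreated and 2047 to 3325 CPM in HGF-treated Detroit 562. It was 4592 to 11005 CPM over the libraries of the other lines. In Detroit 562 KRT14 was barely above the limit, at means of 1.23 CPM without and 1.07 CPM with HGF, against 372 to 2913 CPM in the other groups. DSG3 was at 6.81 and 4.05 CPM there, against 54.6 to 201 CPM. The 7 fibroblast markers summed to 3.41 to 99.4 CPM, the 4 endothelial markers to 0.548 to 8.46 CPM and the 5 leukocyte markers to 18 to 58.2 CPM. In Detroit 562 the fibroblast sum was 29.8 to 54.4 CPM without and 15 to 27.6 CPM with HGF, and PDGFRB was at 0 counts in all 6 libraries. Nearly all of that sum came from COL1A1 (means of 19.2 CPM without and 11.3 CPM with HGF) and COL1A2 (23.9 and 11.6 CPM). COL3A1, DCN, LUM and THY1 held 0 to 3 counts per library in Detroit 562. The leukocyte sum there was 20.7 to 40.7 CPM without and 37.7 to 56.6 CPM with HGF, with 1 of the 5 markers above 1 CPM in each group. The part of these shifts in the results below was not tested. In RNA from whole cultures, fewer cells that express a gene and less RNA per cell cannot be told apart.

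In untreated cells SERPINB5, PLAU and TIMP1 were among the 4 genes with the highest level per length in every line. Levels of different genes are compared here in CPM per kilobase of exon, after scaling by the trimmed mean of M values (TMM). The exon length is that of all annotated exons of a gene merged, such as 4457 bases for PLAUR and 7770 for PLAT. The transcripts present may be shorter than this, by a different factor for each gene, so the order of the genes is uncertain. SERPINB5 encodes maspin, a clade B serpin of epithelial cells that lacks protease inhibitory activity. It had the highest level in Detroit 562 (87.7 ± 2.14 CPM per kilobase, SD, n = 3) and in SCC-9 (59.6 ± 3.77), and PLAU had the highest level in FaDu (72.1 ± 4.89). In Detroit 562 the order continued with PLAU (38.3 ± 1.53), TIMP2 (37.0 ± 1.90) and TIMP1 (34.9 ± 6.70), whose libraries overlapped. Below them stood SERPINE2 (8.88 ± 2.56), PLAT (6.60 ± 1.89), SERPINB2 (5.62 ± 1.79), TIMP3 (5.25 ± 0.563) and PLAUR (2.76 ± 1.07). Of these only PLAUR did not overlap with its neighbour in the order. In FaDu, PLAU was followed by TIMP1 (22.7 ± 9.05) and SERPINB5 (13.0 ± 1.60), which did not overlap with each other. PLAT (2.57 ± 0.821), PLAUR (1.08 ± 0.403), SERPINE2 (1.08 ± 0.276), TIMP2 (0.880 ± 0.347) and TIMP3 (0.813 ± 0.0766) were lower there, and the last 4 of these overlapped from each gene to the next. SERPINB2 was lowest (0.123 ± 0.0091). In SCC-9, PLAU (22.9 ± 5.51), TIMP1 (22.4 ± 2.03), TIMP3 (20.1 ± 0.303), TIMP2 (17.8 ± 1.98), PLAUR (15.9 ± 0.910) and SERPINB2 (13.1 ± 1.58) followed within a narrow range. PLAU overlapped with TIMP1, and TIMP2 with PLAUR, while the other neighbours in this order did not overlap. SERPINE2 (1.58 ± 0.257) and PLAT (1.12 ± 0.193) were far lower in that line and did not overlap. The sources used here do not state whether reads in introns were counted. Per kilobase of gene extent PLAU ranked first in each untreated line, and 9 genes had the same rank in FaDu, 3 in SCC-9 and 0 in Detroit 562.

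**Figure D1:**
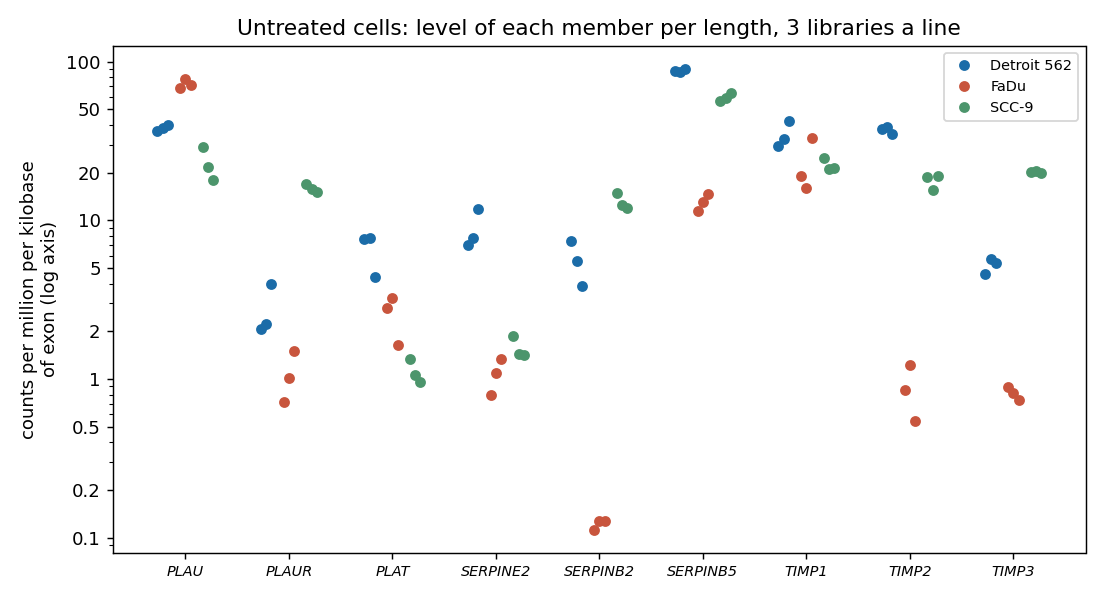
Level of each gene in the untreated libraries, in TMM-scaled CPM per kilobase of exon on a log axis, 3 points per line. SERPINB2, TIMP2 and TIMP3 spread most widely between lines, with FaDu lowest in each.

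Nearly all of the genes differed between the untreated lines. A gene was called when edgeR's quasi-likelihood test gave an adjusted p below 0.1 and the log2 fold change was at least 0.4 in size. Between Detroit 562 and FaDu, 8 of the 9 were higher in Detroit 562 and 1, PLAU, was lower, where 31.2% and 29.8% of all genes tested were called. Between Detroit 562 and SCC-9, 6 were higher and 3 (PLAUR, SERPINB2 and TIMP3) lower in Detroit 562, against 31.4% and 33.9% of all genes. Between FaDu and SCC-9, 2 (PLAU and PLAT) were higher and 6 lower in FaDu, against 30.7% and 33.5% of all genes, and TIMP1 was not called. The libraries of both lines did not overlap for 8, 9 and 8 of the genes in these comparisons, where 74%, 80.7% and 78.6% of all genes did not overlap. The TIMP1 calls were weak: without untreated Detroit 562 library 3 the adjusted p was 0.155 against FaDu and 0.132 against SCC-9, and without untreated FaDu library 1 or 2 it was 0.129 or 0.174 against FaDu. The SERPINE2 call between FaDu and SCC-9 (log2 difference -0.56, adjusted p = 0.0519) was lost without untreated FaDu library 1 (adjusted p = 0.210) or untreated SCC-9 library 1 (0.195). TIMP1 was the member nearest to no difference, at a log2 difference of 0.02 (SE 0.256, adjusted p = 0.942) between FaDu and SCC-9.

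The urokinase gene PLAU (GRCh38 chromosome 10, 73909177 to 73917497, plus strand) was higher after HGF in Detroit 562. Its level was 108, 113 and 117 CPM in the untreated and 146, 130 and 178 CPM in the HGF-treated libraries 1 to 3, so that the groups did not overlap. The log2 fold change was 0.42 (SE 0.163, adjusted p = 0.0677), close to the minimum of 0.4. The call was lost without untreated library 1 (adjusted p = 0.193), untreated library 2 (0.149) or HGF-treated library 3 (0.271). In FaDu, where PLAU was highest, it was 200, 228 and 209 CPM without and 183, 226 and 258 CPM with HGF. In SCC-9 it was 85.0, 64.3 and 52.9 CPM without and 84.9, 65.4 and 61.9 CPM with HGF. The groups overlapped in both lines and PLAU was not called, at log2 fold changes of 0.07 (SE 0.162) in FaDu and 0.07 (SE 0.164) in SCC-9.

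PLAUR, the uPA receptor (chromosome 19, 43646095 to 43670547, minus strand), had the largest rise of the 9 genes in Detroit 562. It was 9.19, 9.91 and 17.8 CPM without and 26.1, 20.4 and 37.4 CPM with HGF. The lowest treated library lay above the highest untreated one, the log2 fold change was 1.19 (SE 0.300, adjusted p = 0.0101), and the call held without any single library. FaDu had 3.18, 4.52 and 6.74 CPM without and 5.70, 5.61 and 11.5 CPM with HGF, higher in 3 of 3 pairs of equal replicate number although the groups overlapped. The log2 fold change there was 0.66 (SE 0.327, adjusted p = 0.623), and with replicate numbers blocked it was called at 0.65 (SE 0.115, adjusted p = 0.00236). In SCC-9, the line with the most PLAUR, it was 75.3, 70.6 and 67.2 CPM without and 95.7, 80.3 and 83.5 CPM with HGF. These groups did not overlap, but the log2 fold change of 0.28 (SE 0.281, adjusted p = 1) did not pass the test. Untreated SCC-9 had 5.79 times the PLAUR of untreated Detroit 562 (adjusted p = 9.39e-07) and 14.7 times that of untreated FaDu (adjusted p = 1.36e-08).

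PLAT, the tissue-type activator (chromosome 8, 42175233 to 42207724, minus strand), fell in Detroit 562. It was 59.3, 60.3 and 34.3 CPM without and 38.1, 35.8 and 21.9 CPM with HGF. It was lower with HGF in 3 of 3 pairs, the groups overlapped through library 3 of the untreated cells, and the log2 fold change of -0.68 (SE 0.295) passed the test narrowly (adjusted p = 0.0996). The call was lost without untreated library 1 (adjusted p = 0.284), untreated library 2 (0.277), HGF-treated library 2 (0.120) or HGF-treated library 3 (0.321), and with DESeq2 (0.123). It was also lost with DESeq2's size factors in edgeR (adjusted p = 0.1004), without the filter on low counts (0.113) and in a fit of Detroit 562 alone (0.105). In FaDu it was 21.8, 25.2 and 12.8 CPM without and 15.7, 19.5 and 8.22 CPM with HGF. That log2 fold change of -0.46 (SE 0.303, adjusted p = 0.677) was not called, and with replicate numbers blocked it was called at -0.48 (SE 0.0690, adjusted p = 0.000533). In SCC-9 it was 10.4, 8.32 and 7.47 CPM without and 9.85, 8.43 and 8.62 CPM with HGF, with overlapping groups.

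SERPINE2 (protease nexin-1, chromosome 2, 223975112 to 224039319, minus strand) inhibits thrombin, uPA and tPA, and it rose in Detroit 562. It was 63.1, 69.8 and 106 CPM without and 117, 105 and 130 CPM with HGF. The groups overlapped by the third untreated library alone, and the log2 fold change was 0.56 (SE 0.229, adjusted p = 0.0815). The call was lost without untreated library 1 (adjusted p = 0.296), untreated library 2 (0.234), HGF-treated library 1 (0.128) or HGF-treated library 3 (0.211). In FaDu it was 7.08, 9.82 and 12 CPM without and 11.4, 12.1 and 21.0 CPM with HGF, higher in 3 of 3 pairs. Its log2 fold change there of 0.62 (SE 0.247, adjusted p = 0.577) was not called, and with the block it was called at 0.61 (SE 0.115, adjusted p = 0.00349). In SCC-9 it was 16.8, 12.9 and 12.8 CPM without and 16.8, 12.4 and 14.1 CPM with HGF, almost the same in both groups. Untreated Detroit 562 had 8.25 times the SERPINE2 of FaDu and 5.61 times that of SCC-9.

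SERPINB2 (plasminogen activator inhibitor 2, chromosome 18, 63871692 to 63903890, plus strand) inhibits uPA, and its level spanned a wider range than that of any other of the 9 genes. Untreated FaDu held 13, 14 and 15 raw counts, 0.309 to 0.352 CPM, and SCC-9 was 106 times higher (adjusted p = 1.21e-09). In Detroit 562 it was 20.5, 15.2 and 10.6 CPM without and 6.14, 6.53 and 11.5 CPM with HGF. It fell in libraries 1 and 2 and was higher in library 3, and the groups overlapped. The log2 fold change was -0.94 (SE 0.329, adjusted p = 0.0454), and DESeq2 did not call it (adjusted p = 0.115). The call was lost without untreated library 1 (adjusted p = 0.223), untreated library 2 (0.1004), HGF-treated library 1 (0.137) or HGF-treated library 2 (0.134). In SCC-9 it was 40.9, 34.4 and 32.6 CPM without and 63.9, 43.2 and 50.7 CPM with HGF, groups that did not overlap at a log2 fold change of 0.55 (SE 0.307, adjusted p = 1). In FaDu with HGF it had 28, 11 and 78 counts, and its log2 fold change of 1.47 (SE 0.618, adjusted p = 0.584) rested on these few reads. SERPINB10 overlaps SERPINB2 by 6717 bases on the same strand, and its counts were 69.2 to 93.3% of those of SERPINB2 in each library. Reads in the shared stretch may have been counted for both, so the values of this pair are uncertain.

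SERPINB5 (chromosome 18, 63476761 to 63505085, plus strand) was not called in any line. It was 328, 320 and 336 CPM without and 268, 293 and 346 CPM with HGF in Detroit 562, a log2 fold change of -0.12 (SE 0.0970, adjusted p = 0.394). FaDu had 42.8, 48.8 and 54.8 CPM without and 54.7, 58.9 and 59.6 CPM with HGF, at 0.24 (SE 0.0989, adjusted p = 0.583). In SCC-9 it was 211, 219 and 239 CPM without and 216, 208 and 248 CPM with HGF, at 0.01 (SE 0.0971, adjusted p = 1). The groups overlapped in all 3 lines. Blocking replicate numbers gave an adjusted p of 0.0876 in Detroit 562 (-0.13) and 0.0199 in FaDu (0.25), both below 0.4 in size.

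TIMP1 (chromosome X, 47582313 to 47586789, plus strand) encodes a secreted inhibitor of most MMPs and was above its untreated partner in 3 of 3 pairs of each line, but was called in none without the block. In Detroit 562 it was 42.8, 47.2 and 61.4 CPM without and 66.3, 59.2 and 71.7 CPM with HGF, at a log2 fold change of 0.38 (SE 0.253, adjusted p = 0.283). FaDu libraries held 27.7, 23.2 and 47.7 CPM without and 49.5, 32.4 and 74.0 CPM with HGF, at 0.66 (SE 0.255, adjusted p = 0.572). In both lines the groups overlapped, and library 3 was the highest of its group. With replicate numbers blocked, TIMP1 was called in FaDu (0.66, SE 0.0782, adjusted p = 0.000144). In the same blocked fit TIMP1 had an adjusted p of 0.00067 in Detroit 562 (0.39, SE 0.0759) and 0.0338 in SCC-9 (0.33, SE 0.0783). TIMP1 was not called in these lines because the changes were below the minimum of 0.4. In SCC-9 it was 35.7, 30.3 and 31.0 CPM without and 41.2, 38.9 and 41.6 CPM with HGF, groups that did not overlap, at 0.33 (SE 0.255, adjusted p = 1).

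TIMP2 (chromosome 17, 78852977 to 78925387, minus strand) inhibits MMPs and also takes part, with MMP14, in the activation of pro-MMP2. It fell in Detroit 562, from 234, 239 and 217 CPM without to 132, 160 and 137 CPM with HGF. The groups were far apart, the log2 fold change was -0.68 (SE 0.216, adjusted p = 0.0301), and the call held without any single library. In FaDu it was 5.32, 7.68 and 3.38 CPM without and 3.41, 6.44 and 2.95 CPM with HGF, and in SCC-9 117, 96.3 and 118 CPM without and 97.6, 89.4 and 96.5 CPM with HGF. TIMP2 was lower with HGF in 3 of 3 pairs in both lines, with overlapping groups and no call (-0.36, SE 0.260, adjusted p = 0.704 in FaDu and -0.23, SE 0.216, adjusted p = 1 in SCC-9). With replicate numbers blocked the adjusted p was 0.0317 in FaDu (-0.36, SE 0.101) and 0.0612 in SCC-9 (-0.22, SE 0.0596). Both changes stayed below 0.4 in size and were not called. CEP295NL lies within TIMP2 on the same strand over 32308 bases. Its counts were 7.52 to 9.22% of those of TIMP2 in Detroit 562 libraries, 6.78 to 7.90% in SCC-9 and 20.7 to 36.1% in FaDu, so that the low FaDu level of TIMP2 is the most uncertain. Untreated Detroit 562 had 42.2 times the TIMP2 of FaDu and 2.08 times that of SCC-9.

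TIMP3 (chromosome 22, 32801701 to 32863043, plus strand), the TIMP that is bound to matrix, was not called in any line. It was 21.3, 26.3 and 24.8 CPM without and 28.3, 26.8 and 20.8 CPM with HGF in Detroit 562, a log2 fold change of 0.07 (SE 0.153, adjusted p = 0.770). The FaDu levels were 4.08, 3.74 and 3.38 CPM without and 4.29, 2.79 and 2.13 CPM with HGF, and in SCC-9 93.2, 93.5 and 91.0 CPM without and 89.8, 84.9 and 81.1 CPM with HGF. Only the SCC-9 groups did not overlap, at -0.12 (SE 0.148, adjusted p = 1). Untreated SCC-9 had 3.84 times the TIMP3 of Detroit 562 and 24.8 times that of FaDu.

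**Figure D2:**
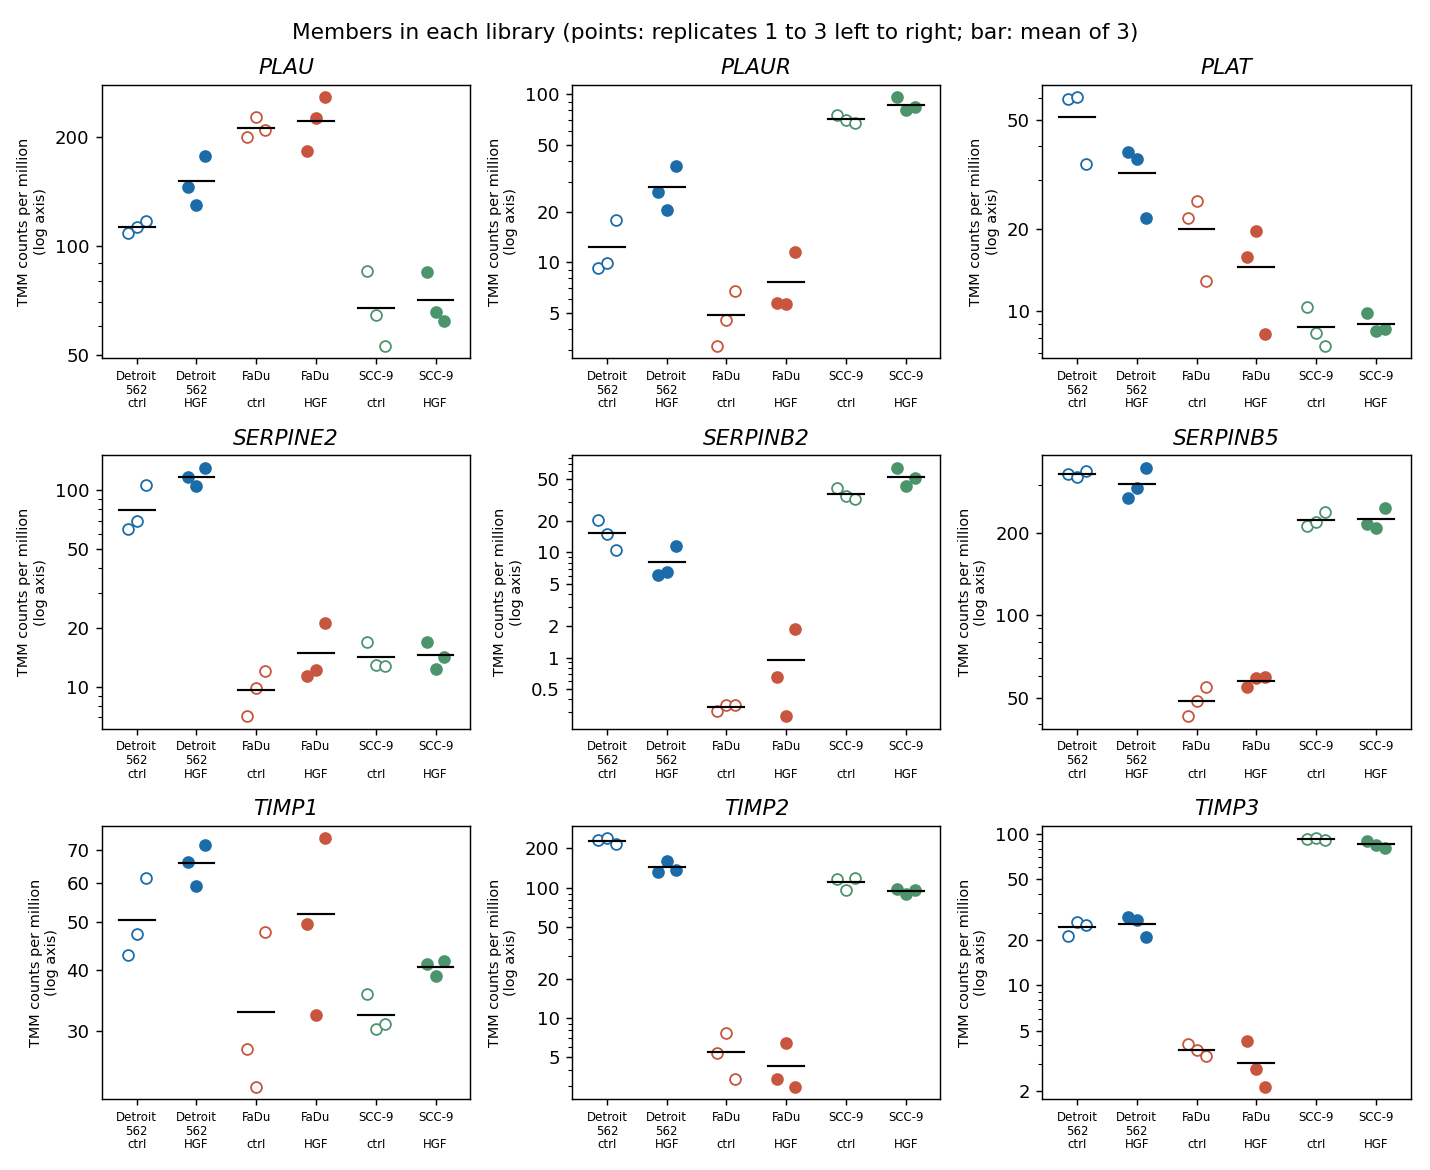
Level of each gene in each of the 18 libraries, in TMM-scaled CPM on a log axis, with open points for untreated and filled points for HGF-treated libraries 1 to 3 and a bar at the mean of 3. PLAU, PLAUR and TIMP2 in Detroit 562 are the called genes whose groups do not overlap.

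Counted together, 3 of the 9 genes (PLAU, PLAUR, SERPINE2) rose and 3 (PLAT, SERPINB2, TIMP2) fell with HGF in Detroit 562, where 6.16% of all genes tested were called higher and 11.7% lower. DESeq2 with a fold change prior called the same 3 higher but only 1, TIMP2, lower, and did not call PLAT or SERPINB2. The share of all genes that DESeq2 called in Detroit 562 is not given here. The groups did not overlap for 3 of the 9, where 38.2% of all genes did not overlap. At an unadjusted p below 0.05, 6 of the 9 passed, against 38.4% of all genes. The median log2 fold change was 0.07 over the 9 genes and -0.0056 over all genes tested. In FaDu 0 of the 9 were called by edgeR, where 0.0258% of all genes (4 genes) were called in either direction. DESeq2 without a fold change prior called 0 as well, against 0.388% of all genes. At an unadjusted p below 0.05, 4 of the 9 passed in FaDu, where 8.06% of all genes did. The groups did not overlap for 0 of the 9 there, where 9.41% of all genes did not. In SCC-9 0 of the 9 were called by edgeR, by edgeR with the block or by DESeq2 without a prior, where 0%, 1.97% and 0.12% of all genes were called. At an unadjusted p below 0.05, 0 of the 9 passed in SCC-9, where 4.14% of all genes did. The SCC-9 groups did not overlap for 4 of the 9 (PLAUR, SERPINB2, TIMP1, TIMP3), where 17.4% of all genes did not. An exact permutation test of 3 libraries against 3 cannot give a two-sided p below 0.1, so the calls rest on the fit across all genes.

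**Figure D3:**
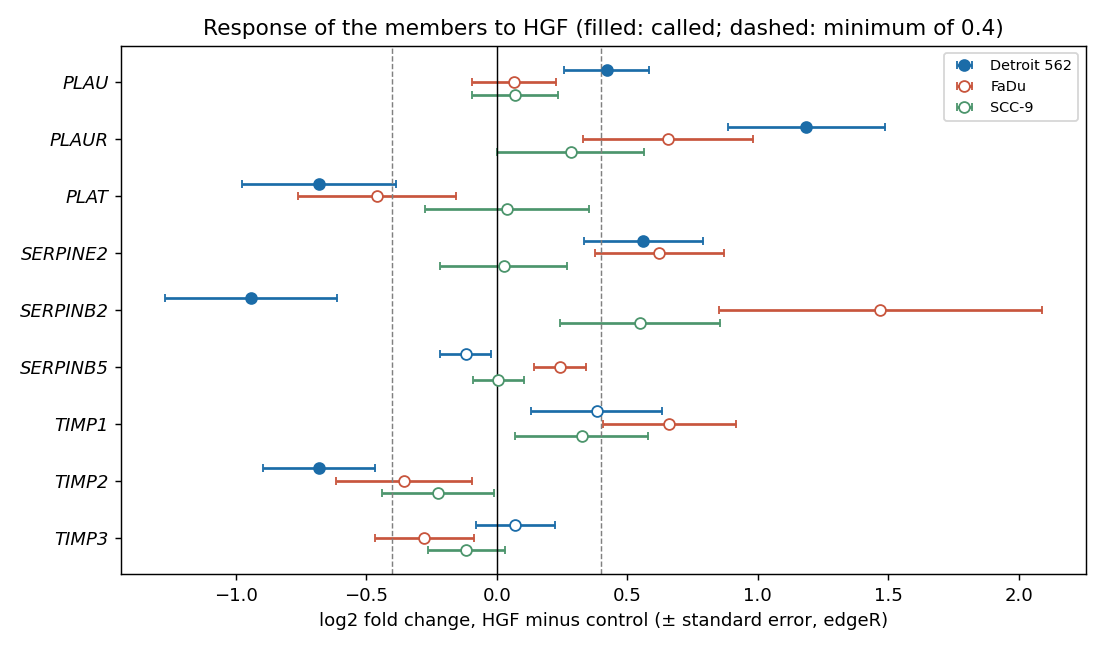
Log2 fold change of each gene, HGF minus untreated, with its standard error from edgeR, for each of the 3 lines. Filled points were called, and these are 6 genes in Detroit 562 and 0 in FaDu and SCC-9.

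Libraries of equal replicate number deviated together, and a fit with this number blocked within each line gave other counts in FaDu. There 3 genes were called higher (PLAUR, SERPINE2, TIMP1) and 1 lower (PLAT), where 2% and 3.6% of all genes were called with the block. Detroit 562 had 3 higher and 3 lower, against 7.13% and 14.4% of all genes with the block. In both lines PLAUR, SERPINE2 and TIMP1 were highest and PLAT lowest in library 3 of the untreated and of the treated cells alike. Without the 6 libraries of replicate number 3, an alternative chosen after seeing the data, PLAU was no longer called in Detroit 562 (0.32, adjusted p = 0.128), whereas TIMP1 was called there (0.49, adjusted p = 0.0401) and in FaDu (0.70, adjusted p = 0.0891).

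**Figure D4:**
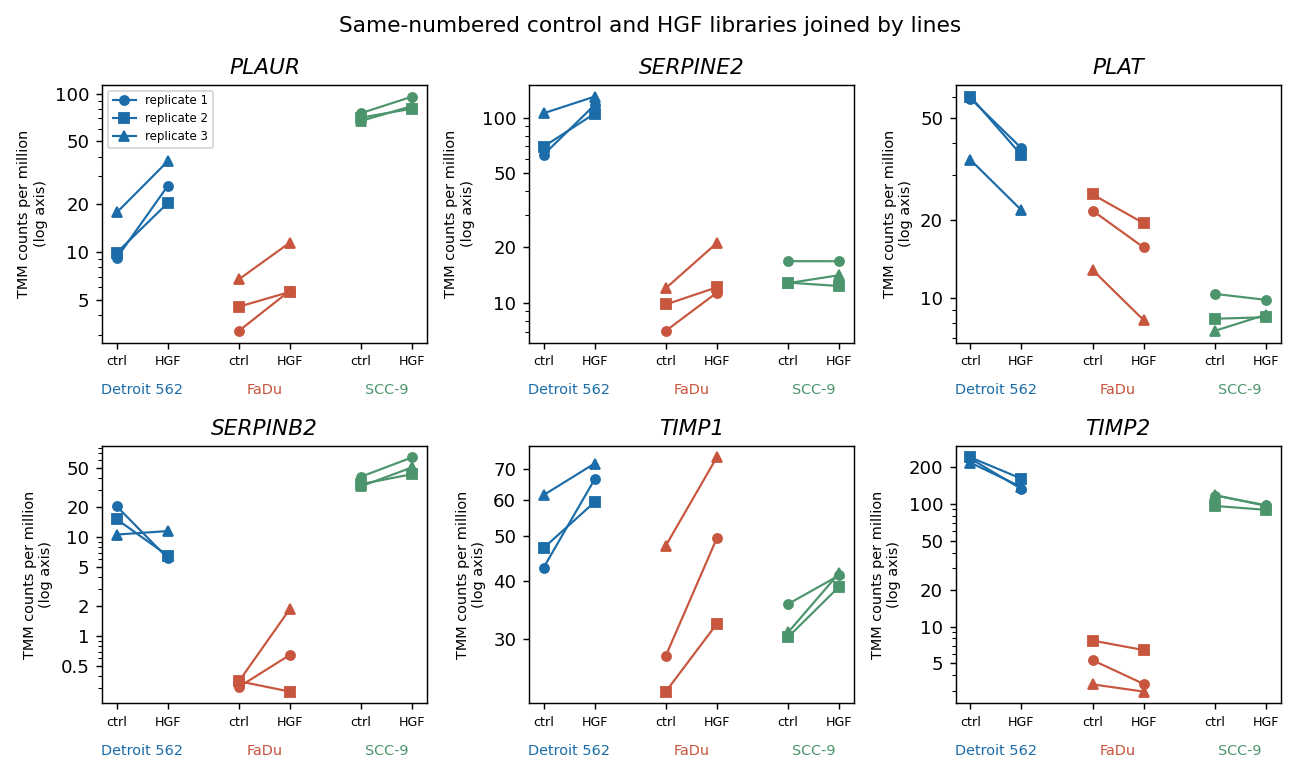
Levels of 6 of the genes in TMM-scaled CPM on a log axis, with untreated and HGF-treated libraries of equal replicate number joined by a line. PLAUR, SERPINE2 and TIMP1 slope up and PLAT and TIMP2 slope down along all 3 joined pairs in Detroit 562 and in FaDu, whereas SERPINB2 slopes up in 1 of 3 pairs in Detroit 562.

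Whether the responses differed between lines was tested as a difference of log2 fold changes, called at an adjusted p below 0.1 alone. Without the block edgeR called 0 of the 9 between Detroit 562 and FaDu, 0 between Detroit 562 and SCC-9 and 0 between FaDu and SCC-9, where 0.239%, 0.924% and 0% of all genes were called. At an unadjusted p below 0.05 these counts were 2, 2 and 0, against 11.6%, 15.4% and 2.18% of all genes. With the block 5 of the 9 were called between Detroit 562 and FaDu, 6 between Detroit 562 and SCC-9 and 1 between FaDu and SCC-9, where 19.1%, 26.9% and 1.32% of all genes were called. The largest difference was that of SERPINB2 between Detroit 562 and FaDu, at -2.41 (SE 0.696, adjusted p = 0.209) without and -2.40 (SE 0.710, adjusted p = 0.0409) with the block. PLAUR responded more in Detroit 562 than in SCC-9 by 0.92 (SE 0.119, adjusted p = 0.000197) with the block, and by 0.90 (SE 0.410, adjusted p = 0.310) without it. The comparisons of Detroit 562 with the other lines share its libraries.

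The 250 bases before the RefSeq transcription start (GRCh38.p14) were searched on both strands for TGANTCA, the core of the site of AP-1, a factor known to act on several genes of this system. The motif was in 6.57% of 35116 such windows. Among the windows at hand it was present in those of PLAUR, SERPINB2 and SERPINB5 and absent from those of PLAU, SERPINE2, TIMP1 and TIMP3, and PLAT and TIMP2 were not searched. These 3 windows are shown because they hold the motif, which is in capitals. PLAUR rose, SERPINB2 fell and SERPINB5 was not called in Detroit 562.
PLAUR, chr19:43670170-43670419, minus strand: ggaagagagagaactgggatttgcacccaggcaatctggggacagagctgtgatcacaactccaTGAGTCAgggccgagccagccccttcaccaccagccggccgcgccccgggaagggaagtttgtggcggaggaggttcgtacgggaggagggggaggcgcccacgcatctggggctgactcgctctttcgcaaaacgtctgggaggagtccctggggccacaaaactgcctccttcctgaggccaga
SERPINB2, chr18:63887455-63887704, plus strand: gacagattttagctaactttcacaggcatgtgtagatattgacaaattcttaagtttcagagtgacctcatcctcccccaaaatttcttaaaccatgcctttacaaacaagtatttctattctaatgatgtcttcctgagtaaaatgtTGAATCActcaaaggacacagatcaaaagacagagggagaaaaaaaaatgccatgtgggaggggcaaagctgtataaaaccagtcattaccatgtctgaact
SERPINB5, chr18:63476708-63476957, plus strand: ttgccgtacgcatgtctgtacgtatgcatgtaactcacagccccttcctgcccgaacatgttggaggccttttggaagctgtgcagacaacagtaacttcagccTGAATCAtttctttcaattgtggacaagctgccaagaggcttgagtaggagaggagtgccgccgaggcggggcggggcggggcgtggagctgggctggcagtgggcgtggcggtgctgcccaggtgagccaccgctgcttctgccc
The motif lies at -186 to -180 from the start in PLAUR, at -102 to -96 in SERPINB2 and at -146 to -140 in SERPINB5. AGGAAG, the core of sites of the PEA3 group of ETS factors, was present on one strand or the other in the same 3 windows, in 1 of the windows of PLAU and in that of TIMP1, and in 28.7% of all windows. GGGCGG, the core of the Sp1 site, was in windows of PLAU, SERPINE2, SERPINB5, TIMP1 and TIMP3 and in 42.6% of all. These matches describe letters in the sequence, not bound sites.

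The genes most like each of the 9 over the 18 libraries were found by the root mean square difference in log2 CPM after subtracting each gene's mean. For PLAU these were C12orf4 (0.174) and C14orf145 (0.208), for PLAUR DLC1 (0.220) and STMN3 (0.344), and for PLAT PGD (0.261) and ATP6V0E2 (0.264). For SERPINE2 they were CCDC69 (0.328) and NAT10 (0.344), for SERPINB5 TACC1 (0.191) and IL1RL2 (0.211), and for SERPINB2 SERPINB10 (0.0909), which may share its reads, and FAM167A (0.561). For TIMP1 they were MFSD2B (0.192) and HMGA1 (0.199), for TIMP2 UCHL1 (0.374), and for TIMP3 GYLTL1B (0.214) and SLC38A4 (0.375). None of the 9 had another of the 9 among its nearest 2 genes.

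Of 47 listed pathway genes that could be tested, 9 rose and 8 fell with HGF in Detroit 562 and 30 were not called, where 6.16% of all genes were called higher and 11.7% lower. Without the block edgeR called 0 of the 47 in FaDu and 0 in SCC-9, where 9 and 2 had an unadjusted p below 0.05, against 8.06% and 4.14% of all genes. DESeq2 without a prior called 1 in FaDu and 0 in SCC-9, against 0.388% and 0.12% of all genes. With the block 6 were higher and 5 lower in FaDu, against 2% and 3.6% of all genes, and 1 was higher and 2 lower in SCC-9, against 1.97% in either direction.

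Of 15 tested genes (of 18) for plasminogen activation and its cell surface receptors, 4 rose and 2 fell in Detroit 562, against 6.16% and 11.7% of all genes, and the median log2 fold change was -0.13. ANXA2, a cell surface receptor for plasminogen and tPA, rose by 0.45 (SE 0.0708, adjusted p = 0.00102), and the plasminogen receptor PLGRKT by 0.42 (SE 0.0978, adjusted p = 0.00654). ITGB1, an integrin subunit, rose by 0.49 and F12, which encodes coagulation factor XII, by 0.77. LRP1, the endocytic receptor that clears activator and inhibitor complexes, fell by 0.60 (adjusted p = 0.0925), and SERPINF2, the plasmin inhibitor, fell by 0.86 (adjusted p = 0.0392). With the block 1 of the 15 was called in FaDu, S100A10, a plasminogen receptor subunit, at -0.43 (SE 0.0536, adjusted p = 0.00018). Of all genes 2% were called higher and 3.6% lower there with the block.

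Among the other serpins, 9 of 11 clade B genes and 7 of 15 genes of other clades could be tested. Of the clade B genes 1 rose and 2 fell in Detroit 562, against the same 6.16% and 11.7% of all genes. SERPINB9, the granzyme B inhibitor, rose by 1.09 (0.386 to 0.843 CPM, adjusted p = 0.0597). SERPINB13 fell by 2.43 (SE 0.648, adjusted p = 0.0133), from 32.0, 23.3 and 9.56 CPM to 5.34, 5.42 and 1.156 CPM. SERPINB10 fell by 1.09 with SERPINB2, and these genes may share reads. Its fall, counted here and among the 8 of the 47 genes, may thus not be separate from that of SERPINB2. Of the other clades 0 rose and 3 fell in Detroit 562, at the same background. These were SERPINF2, given above, SERPINF1, which fell by 0.54, and SERPINI1, which fell by 0.63 on the log2 scale. The median log2 fold change was 0.16 over the clade B genes and -0.45 over those of other clades. In FaDu the block called SERPINB8 (0.50, adjusted p = 0.0516) and SERPINA1 (0.65, adjusted p = 0.000572) higher, and SERPINB13 (-0.47, adjusted p = 0.0366) and SERPING1 (-0.71, adjusted p = 0.0786) lower. In SCC-9 it called SERPINI1 lower (-0.51, adjusted p = 0.0926).

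Of 17 tested (of 19) metalloproteinases that TIMPs inhibit, with TIMP4 and RECK, 4 rose and 2 fell in Detroit 562, where 6.16% and 11.7% of all genes did, and the median log2 fold change was 0.17. MMP1, the interstitial collagenase, was 153, 136 and 275 CPM without and 1006, 842 and 2391 CPM with HGF (2.91, SE 0.352, adjusted p = 0.000167). MMP13, another collagenase, ran opposite, with 166, 161 and 96.7 CPM without and 56.6, 49.0 and 27.4 CPM with HGF (-1.67, SE 0.441, adjusted p = 0.0127). MMP10 (stromelysin 2) rose by 0.82 (adjusted p = 0.0570), a call that DESeq2 did not make (adjusted p = 0.166). MMP2 (gelatinase A) rose by 0.68 and the disintegrin metalloproteinase ADAM12 by 0.85, while the membrane-bound MMP15 fell by 0.51. In SCC-9 MMP1 and MMP13 held 4 to 23 and 0 to 5 counts per library, and neither was called. The log2 fold changes there were -1.09 (SE 1.02) for MMP1, lower with HGF in 3 of 3 pairs, and 0.52 (SE 3.08) for MMP13. Both values rest on few reads, and the groups overlapped. In FaDu MMP1 was 11.8, 18.2 and 10.6 CPM without and 22, 21.6 and 18.2 CPM with HGF, higher in 3 of 3 pairs, and it was called with the block alone (0.63, SE 0.120, adjusted p = 0.00375). MMP13 was lower in 3 of 3 FaDu pairs, with 29.3, 50.7 and 16.6 CPM without and 20.8, 36.6 and 7.40 CPM with HGF, and it too was called with the block alone (-0.66, SE 0.105, adjusted p = 0.0011). MMP9 (gelatinase B) had 14, 7 and 15 counts without and 54, 12 and 99 counts with HGF in FaDu, and it was called by DESeq2 (2.20, adjusted p = 0.0182) and with the block (2.14, adjusted p = 0.000208) but not by edgeR without it (2.18, adjusted p = 0.372). The block also called ADAMTS1 (1.06, adjusted p = 0.00127) and ADAM12 (0.72, adjusted p = 0.00883) higher and MMP7 (-0.46, adjusted p = 0.0282) lower in FaDu. In SCC-9 it called MMP7 lower (-0.93, adjusted p = 0.000634) and ADAMTS1 higher (0.41, adjusted p = 0.0928). In Detroit 562 the block added calls of MMP3 (0.65, adjusted p = 0.0995), ADAMTS1 (0.71, adjusted p = 9.84e-05), ST14 (-0.40, adjusted p = 3.2e-06), SERPINB7 (-0.54, adjusted p = 3.27e-05) and SERPINA1 (-0.46, adjusted p = 0.0100).

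**Figure D5:**
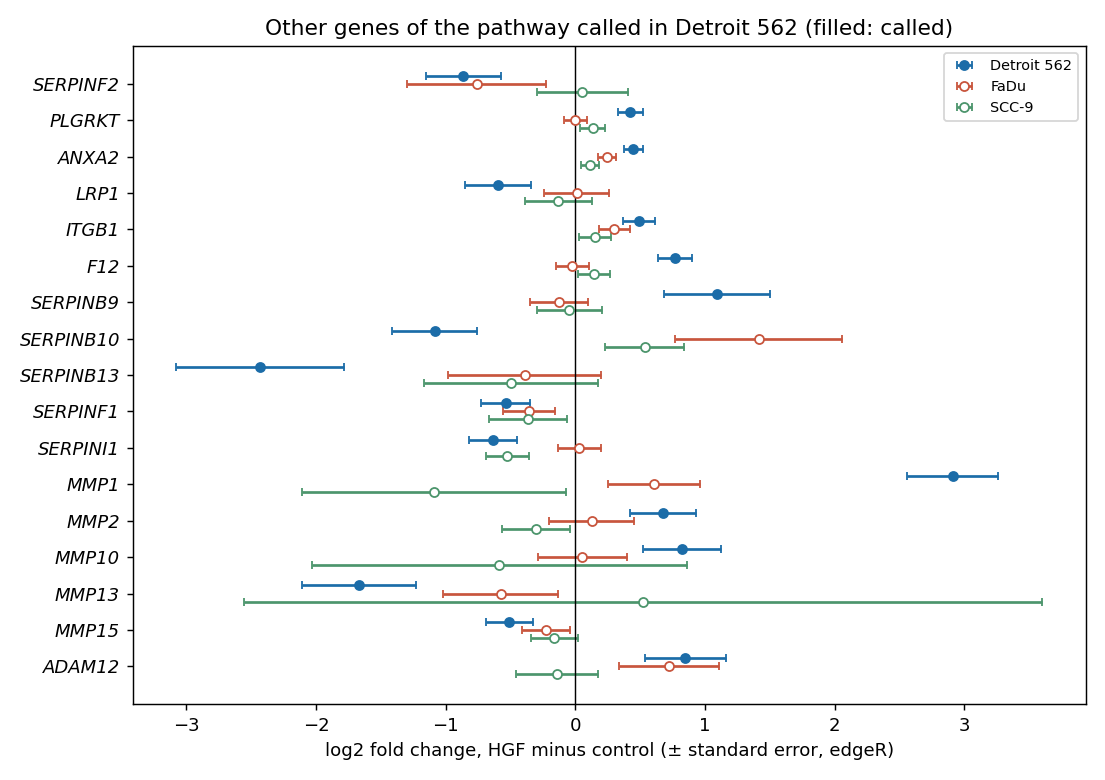
Log2 fold change with HGF, with its standard error from edgeR, of the listed pathway genes that were called in any line, for the 3 lines. The rise of MMP1 and the falls of SERPINB13 and MMP13 in Detroit 562 stand out, and wide bars in SCC-9 belong to genes with few counts.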

How the data were processed

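Raw read counts per gene were deposited by the authors for 18 libraries, whose totals were 35304770 to 44003970 counts. According to the study's methods and the labels, reads were trimmed with cutadapt, aligned with STAR 2.5.2b to GRCh38.p12 with GENCODE annotation, and counted with bedtools against GENCODE gene annotations, on the strand opposite to the read. Whether introns were included is not given in the sources used here, and reads in overlapping genes of the same strand may be counted for each. The treatment time of 16 h is that of the sample records and the study; the series record gives 48 h.

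From these counts edgeR 4.0.16 (R 4.3.3) was fitted with TMM scaling, filterByExpr on the 6 groups and 1 mean per group over all 18 libraries, which left 15475 of 19901 genes. P-values were adjusted over all genes tested by the Benjamini-Hochberg method, and the quasi-likelihood standard error is the log2 fold change over the root of F. DESeq2 1.42.0, other scalings and filters, and single libraries left out were alternatives. Exon lengths came from GENCODE 44, which held 19802 of the genes. No 2 libraries were identical. The scripts were run on simulated data that held no differences between untreated lines and no shared effect of replicate number. That run therefore cannot show how the block performs on the data here.

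The replicate number in the sample titles was checked as a block: deviations from the group means of untreated and treated libraries of equal number correlated at 0.161 to 0.563 in all 9 pairs, so values with the block are given where it changed a call. Named genes were the 9, genes of the pathway lists called in an HGF comparison (those called with the block or DESeq2 alone were added after their values were seen), and for each of the 9 the 2 nearest genes. The 9 genes and the lists were chosen with earlier results of these data known. A few genes of the lists and of the nearest genes are not reported here, and the list counts and medians are without them.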

Additional observations from a re-analysis of the deposited data

Results flagged for a closer look

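Differences in HGF response between lines were found with replicate numbers blocked, and edgeR without the block called none of them (0 of 9 genes for each pair of lines). They are differences of log2 fold changes. Between Detroit 562 and FaDu they were 0.36 for PLAU, 0.55 for PLAUR, -2.40 for SERPINB2, -0.37 for SERPINB5 and -0.32 for TIMP2. Between Detroit 562 and SCC-9 they were 0.33 for PLAU, 0.92 for PLAUR, -0.72 for PLAT, 0.56 for SERPINE2, -1.49 for SERPINB2 and -0.46 for TIMP2. Between FaDu and SCC-9 the difference was -0.53 for PLAT. SERPINB2 in FaDu rests on 11 to 78 counts per library. No group held 4 libraries, so single libraries were not tested for standing apart.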

How the results depend on the processing

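With replicate numbers blocked, the genes called numbered 4 in FaDu with HGF, and the differences in response numbered 5 (Detroit 562 and FaDu), 6 (Detroit 562 and SCC-9) and 1 (FaDu and SCC-9). The block changed no call between untreated lines, and turned the TIMP1 difference between untreated FaDu and SCC-9 to -0.038. DESeq2 without a prior called 1 difference between Detroit 562 and FaDu (SERPINB2), and a fit of only the lines compared called 1 between Detroit 562 and SCC-9. Under stricter thresholds (adjusted p below 0.05, log2 fold change of 1 or more) 1 gene, PLAUR, was called in Detroit 562. Apart from the block, the share of all genes called under the settings of this section is not given. The counts here therefore cannot be set against it. The response of PLAU in FaDu minus that in SCC-9, near 0, turned to 0.00080 with size factors, 0.0072 without a filter, 0.0043 with at least 50 counts in 3 libraries and 0.0015 with DESeq2 without a prior.

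Without the libraries of replicate number 3, 1 gene was called in FaDu, and 1 and 4 differences were called between Detroit 562 and FaDu and SCC-9. Values that then changed sign were PLAU in FaDu (-0.053), PLAT (-0.034), SERPINE2 (-0.028) and SERPINB5 (-0.022) in SCC-9, TIMP1 between untreated FaDu and SCC-9 (-0.38) and the SERPINE2 difference between Detroit 562 and FaDu (0.26). Ranking per kilobase of gene extent left 0 ranks in Detroit 562 and 3 in SCC-9 as they were.

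Leaving out 1 library at a time gave 2 to 6 genes called in Detroit 562, 0 to 1 differences between Detroit 562 and FaDu and 0 to 2 between Detroit 562 and SCC-9. The log2 fold changes that changed sign, none of them called in the full data, ranged as follows. With HGF they were TIMP3 in Detroit 562 (-0.018 to 0.19), PLAU in FaDu (-0.044 to 0.19), and in SCC-9 PLAU (-0.082 to 0.27), PLAT (-0.061 to 0.19), SERPINE2 (-0.098 to 0.17) and SERPINB5 (-0.071 to 0.056). Between untreated FaDu and SCC-9 it was TIMP1 (-0.35 to 0.22). For the response in Detroit 562 minus that in FaDu they were PLAT (-0.51 to 0.052), SERPINE2 (-0.25 to 0.27), TIMP1 (-0.65 to 0.058) and TIMP2 (-0.65 to 0.094), and minus that in SCC-9 TIMP1 (-0.050 to 0.22). For FaDu minus SCC-9 they were PLAU (-0.20 to 0.16), PLAUR (-0.041 to 0.70), SERPINB2 (-0.065 to 1.34), TIMP2 (-0.55 to 0.19) and TIMP3 (-0.49 to 0.058). The cause of these changes was not tested. Each group has 3 libraries, and SERPINB2 in FaDu has few counts.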
